A study of Mus musculus with 48 samples.

Results

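The transcripts of 9 genes of the PI3K, Akt, mTOR and Foxo pathway were followed in splenic regulatory T cells (Tregs) and conventional T cells (Tcons) of mice given IL-2 molecules, with and without antibody blockade of MHC class II. The 9 genes were chosen by symbol, out of 53345 genes in the matrices, and all of them were present in both the count and the FPKM matrix. They are Pik3cd and Pik3r1 (subunits of PI3K), Pik3ip1 (a transmembrane inhibitor of PI3K), Akt1 (the kinase downstream of PI3K), Tsc1 (a brake on mTORC1), Mtor and Rptor (kinase and scaffold of mTORC1), and Foxo1 and Foxo3 (transcription factors that Akt phosphorylates).

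In T cells, PI3K makes a membrane lipid signal downstream of the T cell receptor, CD28 and the IL-2 receptor, and this lipid recruits and activates Akt. Akt relieves the TSC complex's hold on mTORC1, a driver of growth and protein synthesis, and phosphorylates Foxo factors, which then leave the nucleus. In Tregs the pathway is known to be held at a lower level than in Tcons, Foxo1 is needed for Treg function, and the IL-2 receptor signals chiefly through STAT5. These are activities of proteins. RNA levels are reported here, and neither phosphorylation nor protein was measured in these libraries.

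Female C57BL/6 mice of 8 to 12 weeks received 2 intraperitoneal doses of 500 µg of either an isotype control antibody or an MHC II blocking antibody, the day before and the day of 1 subcutaneous injection of PBS or 25 µg of an IL-2 molecule. The molecules were human IL-2 fused to an Fc without effector function: wild-type IL-2 (WT IL-2) and the muteins H16R, which carries 1 substitution, and 3x, which carries several. Both muteins are attenuated in STAT5 signalling in vitro, 3x further than H16R. Spleens were taken on day 4, so the 8 groups were isotype PBS, isotype WT IL-2, isotype H16R, isotype 3x, and the same 4 treatments with MHC II block. Each group had 4 Treg libraries, and 2 of the mice of each group also gave a Tcon library, making 32 Treg and 16 Tcon libraries. The labels tag each Treg library of a group with its own mouse, except that 2 isotype WT IL-2 Treg libraries carry the same tag. These were counted as 2 mice (replicates 3a and 3b), so n = 4 in that group rests on reading the repeated tag as a slip. Tregs were the CD25+ fraction of bead-selected CD4 T cells and Tcons the CD25- flow-through, so neither was sorted on Foxp3, and CD25 is itself a subunit of the IL-2 receptor.

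Gene totals ran from 18.28 to 51.24 M expected counts in Tregs (median 40.71) and from 31.31 to 51.95 M in Tcons, with isotype PBS Tregs the shallowest at 18.28 to 34.58 M. The lowest count of any of the 9 genes in any library was 968 (Pik3ip1), so none was limited by detection. Foxp3 stood at 687 to 1250 CPM (expected counts per M of the TMM-scaled library total) in Tregs and at 46.8 to 183 CPM in Tcons, so the Tcon fraction also held Foxp3 RNA. One isotype PBS Treg library, replicate 1, stood apart: its 4 B cell markers summed to 453 CPM against 72.5 to 96.3 in the other 3. MHC II block WT IL-2 Treg replicate 1 also stood apart, with 413 CPM of B cell, 437 CPM of myeloid and 142 CPM of neutrophil markers. In bulk samples, fewer cells of a type and less RNA per cell cannot be told apart.

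The 9 genes lie, on GRCm38, at chr4:149649168-149702571 on the minus strand (Pik3cd), chr13:101680563-101768217 minus (Pik3r1), chr11:3330401-3342971 plus (Pik3ip1), chr12:112653821-112674884 minus (Akt1), chr2:28641228-28691167 plus (Tsc1), chr4:148448611-148557683 plus (Mtor), chr11:119602905-119899576 plus (Rptor), chr3:52268336-52353221 plus (Foxo1) and chr10:42181841-42276755 minus (Foxo3). All are protein-coding. Foxo1 and Rptor have annotated antisense genes, and Mtor and Pik3ip1 overlap genes on the opposite strand. The library kit keeps strand, but whether the counting used it is not given in the sources used here, so the reads of these partners may not be told apart.

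Promoter windows from RefSeq (GRCm38.p6, 250 bases before to 50 after a start) were searched on both strands for the Foxo core GTAAACA and for TTCNNNGAA, the spacing that STAT5 binds, because Foxo factors are themselves among the 9 genes and STAT5 is the IL-2 receptor's main factor. Among the 13 windows of the 9 genes, these 2 held a match, shown in capitals. The Akt1 window (chr12:112674835-112675134, minus strand) held the Foxo core as read from the other strand, with its first printed base at -161 from the start, and the Mtor window (chr4:148448332-148448631, plus strand) held the STAT5 spacing at -228.
Akt1: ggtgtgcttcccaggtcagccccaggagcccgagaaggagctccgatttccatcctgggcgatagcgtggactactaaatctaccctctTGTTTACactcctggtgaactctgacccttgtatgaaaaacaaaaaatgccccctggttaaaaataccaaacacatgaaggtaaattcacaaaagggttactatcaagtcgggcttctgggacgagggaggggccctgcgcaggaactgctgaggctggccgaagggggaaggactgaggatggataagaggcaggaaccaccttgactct
Mtor: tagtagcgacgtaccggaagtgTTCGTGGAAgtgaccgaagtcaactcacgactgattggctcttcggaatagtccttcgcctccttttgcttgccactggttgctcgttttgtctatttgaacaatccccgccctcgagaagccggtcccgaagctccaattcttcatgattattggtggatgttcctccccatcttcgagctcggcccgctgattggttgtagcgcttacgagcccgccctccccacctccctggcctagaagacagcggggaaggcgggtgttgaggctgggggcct
Of 32851 promoter windows in the table, 3.65% held the Foxo core and 8.3% the STAT5 spacing. A match describes the letters of the window and is not evidence of binding, and the other 11 windows only lack these letters.

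Per length, Pik3cd was the most abundant of the 9 genes in Tregs, at 106 to 152 FPKM (median 123). Akt1 followed at 48.1 to 84.1 FPKM (median 58), then Pik3r1 at 30.3 to 50.6 (median 39.2) and Foxo1 at 29.9 to 42.8 (median 37), 2 genes whose ranges overlapped almost wholly. Pik3ip1 (13.3 to 27 FPKM) and Foxo3 (15.3 to 21.8 FPKM) also overlapped, as did Mtor (8.59 to 11), Tsc1 (7.2 to 12.2) and Rptor (7.32 to 11.6). In Tcons the order of medians differed in that Pik3ip1 stood above Foxo1 (31.8 and 28.4 FPKM) and Rptor above Mtor and Tsc1 (10, 9.82 and 9.55 FPKM, with overlapping ranges). Across the 32 Treg libraries the highest CPM exceeded the lowest by 1.91 times for Pik3ip1 and 1.79 times for Akt1, the widest ranges, and by 1.36 times for Foxo3, the narrowest.

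**Figure D1:**
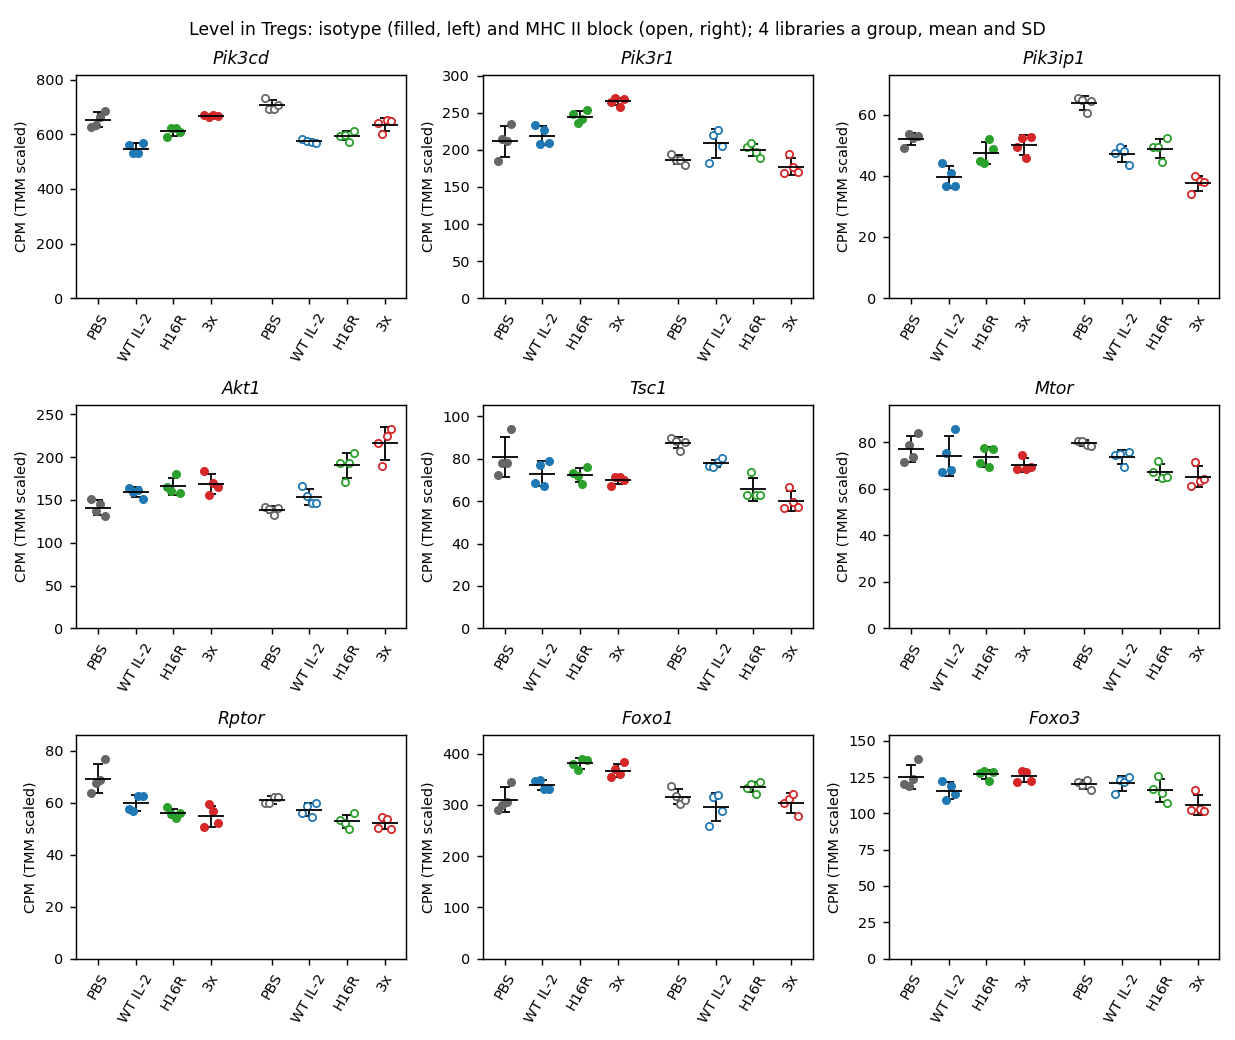
Level of each of the 9 genes in Tregs (y axis, CPM scaled by TMM, from 0) by treatment, with isotype groups filled on the left and MHC II block groups open on the right. Each point is 1 library, and bars give mean and SD of 4 libraries. Akt1 with MHC II block climbs from 133 to 142 CPM in PBS to 190 to 233 in 3x, while Tsc1 and Pik3ip1 fall.

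The first question was what each IL-2 molecule changed against PBS in Tregs of the same antibody arm. In isotype Tregs, 7 of the 9 genes passed an adjusted p of 0.1 with WT IL-2 (2 higher, 5 lower), where 52.2% of all genes tested passed. With H16R it was 7 (3 higher, 4 lower; 64.2% of all genes), and with 3x it was 5 (3 higher, 2 lower; 63.6%). With MHC II block, 5 passed with WT IL-2 (35.6%), 6 with H16R (1 higher, 5 lower; 66.5%) and 7 with 3x (1 higher, 6 lower; 73.0%). A count of 5 to 7 of 9 thus stood beside a background in which 35.6% to 73.0% of all genes passed. The medians of their log2 fold changes, -0.21 to 0.02, were small. Each arm's 3 contrasts share their PBS libraries.

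Akt1 passed as higher with every molecule in both arms, although the call for WT IL-2 under MHC II block was lost in 6 alternatives. In isotype PBS Tregs it read 151, 137, 145 and 131 CPM, and in isotype 3x Tregs 184, 156, 170 and 165 CPM. Under the block the PBS libraries read 142, 139, 133 and 141 CPM, the H16R libraries 193, 171, 194 and 205, and the 3x libraries 217, 190, 225 and 233. Every H16R and 3x library of that arm lay above every PBS library. The log2 fold change against PBS with MHC II block was 0.17 ± 0.06 (SE) for WT IL-2 (adjusted p = 0.0499), 0.46 ± 0.06 for H16R (6.87e-07) and 0.63 ± 0.06 for 3x (1.28e-09), a 1.55-fold rise. In the isotype arm it was 0.17, 0.24 and 0.27 (adjusted p 0.0289, 0.0025 and 8.12e-04). The rise with 3x was larger with MHC II block than with isotype (interaction 0.36 ± 0.09, adjusted p = 0.00352). For H16R the interaction was 0.22 ± 0.09 (adjusted p = 0.106), and it passed in 5 alternatives at 0.22 to 0.23 (adjusted p 0.0811 to 0.0964). The WT IL-2 change with MHC II block was 0.12 to 0.16 (adjusted p 0.111 to 0.168) in the 6 alternatives that lost it, which were total counts, no filter, all biotypes, limma on FPKM with either pseudocount, and leaving out the libraries that stand apart (0.168).

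Tsc1, which with Tsc2 holds back mTORC1, went the other way. The MHC II block PBS libraries read 89.6, 88.5, 83.8 and 88.1 CPM, against 62.7, 73.9, 62.9 and 63 in H16R and 56.8, 66.8, 59.5 and 57.1 in 3x. Neither mutein overlapped PBS. Tsc1 fell by 0.42 on the log2 scale with H16R (SE 0.07, adjusted p = 4.59e-06) and by 0.55 with 3x (SE 0.07, 2.91e-08). In the isotype arm PBS read 72.5, 78, 77.9 and 94.2 CPM, the changes were -0.14, -0.15 and -0.19 for WT IL-2, H16R and 3x (adjusted p 0.0828, 0.0558 and 0.0176), and each of these calls was lost without isotype PBS replicate 4. The fall with 3x was larger under MHC II block (interaction -0.37 ± 0.09, adjusted p = 0.00456).

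Pik3ip1, the PI3K inhibitor, had the largest change of the 9 genes. With MHC II block it read 65.2, 64.9, 60.5 and 64.4 CPM in PBS Tregs and 34.1, 39.8, 38.3 and 38 CPM in 3x Tregs, a level 0.585 of PBS (log2 fold change -0.77 ± 0.06, adjusted p = 2.16e-11). WT IL-2 (47.5, 49.4, 48.2 and 43.4 CPM) and H16R (49.2, 49.3, 44.5 and 52.2 CPM) lay between, with changes of -0.42 and -0.39. In the isotype arm the order of the molecules was different. PBS read 49, 53.6, 52.3 and 52.9 CPM, WT IL-2 44, 36.7, 41 and 36.7, and 3x 49.5, 52.4, 45.6 and 52.7. There WT IL-2 lowered it (-0.39 ± 0.06, adjusted p = 1.56e-05) while 3x overlapped PBS (-0.04, 95% interval -0.17 to 0.08). The interaction for 3x was -0.73 ± 0.09 (adjusted p = 1.91e-06), the largest of the 9 genes.

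**Figure D2:**
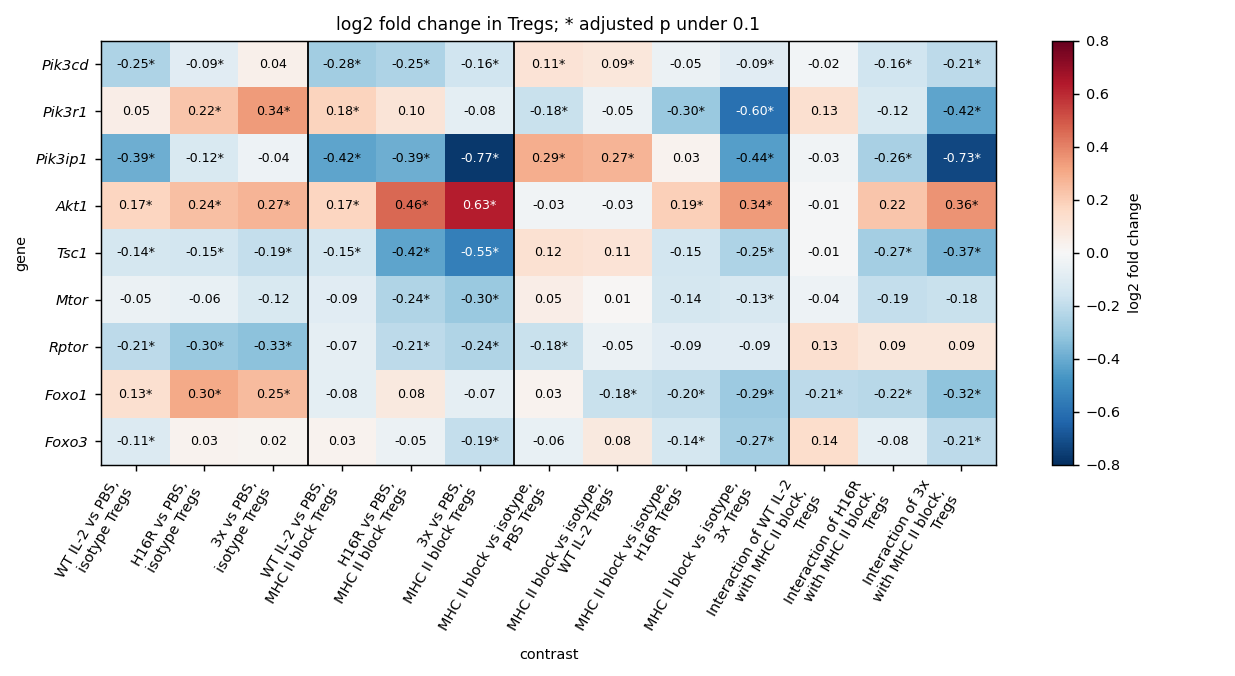
Heat map of log2 fold changes in Tregs, with the 9 genes as rows and 13 contrasts as columns, red for higher and blue for lower; numbers are the fold changes and an asterisk marks adjusted p under 0.1. Vertical lines separate the molecules against PBS in each arm, MHC II block against isotype, and the interactions. Pik3ip1 at -0.77 and Akt1 at 0.63 for 3x under MHC II block are the extremes of the 6 contrasts with PBS.

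The 2 PI3K subunits moved differently from each other. Pik3cd, the catalytic p110δ subunit that leukocytes favour, stood at 626 to 686 CPM in isotype PBS and 531 to 568 in isotype WT IL-2, with no overlap (-0.25 ± 0.03, adjusted p = 5.58e-07), while 3x at 662 to 672 CPM gave 0.04 (-0.02 to 0.11). Under the block it fell with all 3 molecules, from 694 to 731 CPM in PBS to 567 to 584 with WT IL-2 (-0.28), 573 to 612 with H16R (-0.25) and 602 to 653 with 3x (-0.16, adjusted p = 9.48e-05). Pik3r1, the p85α regulatory subunit that stabilises and restrains the catalytic one, read 185, 215, 212 and 236 CPM in isotype PBS, 248, 237, 242 and 253 in isotype H16R and 265, 269, 258 and 269 in isotype 3x. It rose with H16R (0.22 ± 0.06, adjusted p = 0.0024) and 3x (0.34 ± 0.06, 1.73e-05), each above every PBS library. Under the block, PBS read 194, 187, 186 and 180 CPM. WT IL-2 there read 182, 220, 226 and 205 CPM and passed as higher (0.18 ± 0.06, adjusted p = 0.0227), a call lost in at least 1 alternative. H16R gave 0.10 (-0.02 to 0.21), and 3x, at 169, 194, 176 and 170 CPM, gave -0.08 (-0.20 to 0.03), and neither passed. H16R passed as higher in 4 alternatives (0.10 to 0.15, adjusted p 0.0329 to 0.0908) and 3x as lower in 3 (-0.12 to -0.13, 0.0732 to 0.0838). The interaction for 3x was -0.42 ± 0.08 (adjusted p = 4.35e-04).

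Mtor and Rptor changed less. Rptor, the mTORC1 scaffold, fell from 63.7 to 76.9 CPM in isotype PBS to 56.7 to 62.7 CPM with WT IL-2, 54.1 to 58.2 with H16R and 50.5 to 59.5 with 3x (-0.21, -0.30 and -0.33). In the MHC II block arm it fell with H16R (-0.21, adjusted p = 8.87e-04) and 3x (-0.24, 1.81e-04), from 59.8 to 62.4 CPM in PBS to 50 to 55.9 and 50 to 54.4 CPM. Mtor did not pass in the isotype arm, where the changes were -0.05, -0.06 and -0.12, but with 3x it passed as lower in 6 alternatives (-0.12 to -0.19, adjusted p 0.00692 to 0.0816), the largest change being with limma on FPKM. With MHC II block, PBS libraries at 78.4 to 80.8 CPM lay above H16R at 64.7 to 72.2 (-0.24, adjusted p = 0.002) and 3x at 61.2 to 71.6 (-0.30, 1.92e-04). No interaction passed for either gene. That of Mtor with 3x was -0.18 (-0.36 to 0.00) and passed in 2 alternatives, with only the groups compared (-0.18, adjusted p = 0.0875) and after thinning to the smallest library (-0.20, 0.0978). That of Rptor was 0.09 (-0.06 to 0.23).

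Foxo1 rose with all 3 molecules in the isotype arm. Isotype PBS libraries read 290, 300, 306 and 346 CPM, H16R 379, 367, 390 and 388, and 3x 355, 370, 360 and 384, without overlap with PBS. The changes were 0.30 ± 0.05 (adjusted p = 2.31e-05) and 0.25 ± 0.05 (2.03e-04). WT IL-2, at 331 to 348 CPM, overlapped PBS and changed by 0.13 ± 0.05 (0.0498), a call lost in at least 1 alternative. Under the block, PBS at 302 to 336 CPM, H16R at 321 to 344 and 3x at 278 to 322 overlapped, and the values of 0.08 (-0.03 to 0.18) and -0.07 (-0.17 to 0.04) did not pass. H16R passed as higher with all biotypes (0.13, adjusted p = 0.0436), and 3x as lower in 3 alternatives (-0.10, 0.0959 to 0.099). WT IL-2 in that arm read 260 to 320 CPM, gave -0.08 (-0.18 to 0.03) and did not pass. It passed as lower with total counts (-0.13, adjusted p = 0.0874) and with limma on FPKM at either pseudocount (-0.12, 0.0797 and -0.13, 0.0806). The 3x interaction was -0.32 ± 0.08 (adjusted p = 0.00225). Foxo3 gave -0.11, 0.03 and 0.02 against isotype PBS with WT IL-2, H16R and 3x. The WT IL-2 call (adjusted p = 0.0699) was lost in 4 alternatives. The H16R and 3x values did not pass (adjusted p = 0.683 and 0.809), and with limma on log2(FPKM + 1) they turned and passed as lower (-0.10, 0.0728 and -0.11, 0.0487). Foxo3 changed by -0.19 ± 0.05 with 3x under MHC II block (adjusted p = 0.00156), where 3x read 102, 116, 103 and 102 CPM and PBS 122, 119, 123 and 116.

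The second question was what MHC II blockade did with each treatment. Without IL-2, 4 of the 9 genes passed in PBS Tregs (2 higher, 2 lower), where 14.1% of all genes passed, and the one that passed in all alternatives was Pik3ip1, higher with the block (0.29 ± 0.06, adjusted p = 0.00364). The count was 3 in WT IL-2 Tregs (33.5%) and 4 in H16R Tregs (30.7%). In 3x Tregs it was 8 (1 higher, 7 lower), where 54.1% of all genes passed. There Pik3r1 fell by 0.60 (SE 0.06, adjusted p = 5.10e-09), Pik3ip1 by 0.44, Foxo1 by 0.29, Foxo3 by 0.27 and Tsc1 by 0.25, and Akt1 rose by 0.34 (SE 0.06, 1.07e-04). Libraries with block and isotype did not overlap for 7 of the 9 genes in 3x Tregs, against 41.9% of all genes. Of the interactions, which ask whether a molecule's change against PBS differed between arms, 1 of 9 passed for WT IL-2 (19.6% of all genes), 4 for H16R (19.1%) and 7 for 3x (39.0%; 1 higher, 6 lower). The WT IL-2 one and the 4 for H16R were each lost when some single library was left out or under another setting.

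The 3 molecules were also compared directly, at the same dose and day, in 3 pairs per arm. In isotype Tregs, H16R differed from WT IL-2 in 5 genes, all higher (18.6% of all genes passed), 3x from WT IL-2 in 6 (5 higher, 1 lower; 34.7%), and 3x from H16R in 1 (11.5%). That 1 was Pik3cd, higher by 0.14 with 3x (95% interval 0.07 to 0.20). Pik3ip1 was higher with H16R (0.27) and with 3x (0.35) than with WT IL-2, and Pik3cd by 0.16 and 0.30, while Akt1 differed by 0.06 (-0.06 to 0.19) and 0.09 (-0.03 to 0.22), which did not pass. With MHC II block, H16R differed from WT IL-2 in 5 genes (57.5% of all genes), 3x from WT IL-2 in 8 (68.7%) and 3x from H16R in 6 (25.2%). In that arm Akt1 was higher with H16R (0.29, adjusted p = 5.89e-04) and 3x (0.46, 6.41e-07) than with WT IL-2, and Tsc1 lower (-0.27 and -0.40). Pik3ip1 was lower with 3x than with WT IL-2 (-0.36) and H16R (-0.39 ± 0.06, adjusted p = 1.69e-04) and did not pass between H16R and WT IL-2 (0.03, -0.09 to 0.15). Of the 6 genes in which 3x and H16R differed with MHC II block, Pik3ip1 and Pik3r1 kept their calls in the alternatives run on all libraries or without those that stand apart, and Pik3r1 lost its call without MHC II block H16R replicate 2 (-0.15, adjusted p = 0.101) or 3x replicate 4 (-0.16, 0.1).

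Markers of other cells moved with some of these groups. The 4 myeloid markers, all detected, summed to 32.6 to 56.9 CPM in MHC II block H16R and 45.2 to 61.7 in MHC II block 3x Tregs, against 13.4 to 19.9 in MHC II block PBS. The 4 B cell markers summed to 8.52 to 16.5 CPM in isotype H16R and 3x Tregs, against 72.5 to 453 in isotype PBS. The 3 plasma cell markers summed to 1630 to 1940 CPM in isotype PBS and 175 to 262 in isotype 3x, and to 684 to 2020 in MHC II block PBS and 694 to 1490 in MHC II block 3x Tregs. The 4 Treg markers summed to 2450 to 3100 CPM in isotype PBS and 2610 to 2820 in MHC II block PBS Tregs, and to 3480 to 4230 CPM in the mutein groups. With WT IL-2 they summed to 3670 to 4200 CPM in the isotype arm and 2240 to 3200 with MHC II block. The part of these markers in the results above was not tested. Without both libraries that stand apart, the calls for Akt1 (0.12, adjusted p = 0.168) and Tsc1 (-0.15, 0.108) with WT IL-2 under MHC II block were lost. So were those for Foxo1 with WT IL-2 in the isotype arm (0.10, 0.104), the Foxo1 interaction with WT IL-2 (-0.13, 0.225) and the Tsc1 interaction with H16R (-0.23, 0.127). Pik3cd between arms in WT IL-2 Tregs (0.07, 0.152) and Mtor with H16R against WT IL-2 under MHC II block (-0.14, 0.106) also lost their calls. The other Akt1 calls in Tregs were kept in that setting. The same setting gained 5 calls, which were the Pik3r1 interaction with WT IL-2 (0.23, adjusted p = 0.0336, from 0.13 and 0.349), Pik3r1 with H16R against WT IL-2 (-0.13, 0.0347) and against PBS (0.10, 0.083) under MHC II block, Mtor with isotype 3x (-0.15, 0.0719) and Tsc1 between arms in H16R Tregs (-0.15, 0.0866). The 1 gene called for the WT IL-2 interaction was thus Pik3r1 in place of Foxo1. The calls with 3x against MHC II block PBS were kept in every alternative, those left-out libraries included.

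Transcript length moved with some of the contrasts. Over all genes tested, the median log2 fold change ran from 0.09 in the shortest quartile of genes to -0.14 in the longest for 3x against PBS with MHC II block, and from 0.10 to -0.13 for H16R, against 0.03 to -0.04 for 3x in the isotype arm. No such run was seen for WT IL-2 against PBS with MHC II block (0.02 to 0.01), nor for the block against isotype in PBS (0.01 to 0.00) and WT IL-2 Tregs (-0.01 to 0.04), while that contrast ran from 0.09 to -0.09 in H16R and 0.08 to -0.08 in 3x Tregs. Akt1 (2.7 kb) and Pik3ip1 (2.5 kb) were in the second quartile, where the median for 3x with MHC II block was -0.01, and the other 7 genes, at 4.9 to 8.7 kb, were in the longest. Tsc1 at -0.55, Mtor at -0.30, Rptor at -0.24 and Foxo3 at -0.19 lay further from 0 than that quartile's -0.14, and Pik3cd at -0.16 lay next to it. Pik3r1 at -0.08 and Foxo1 at -0.07 lay nearer 0. What length contributed to these values was not tested.

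**Figure D3:**
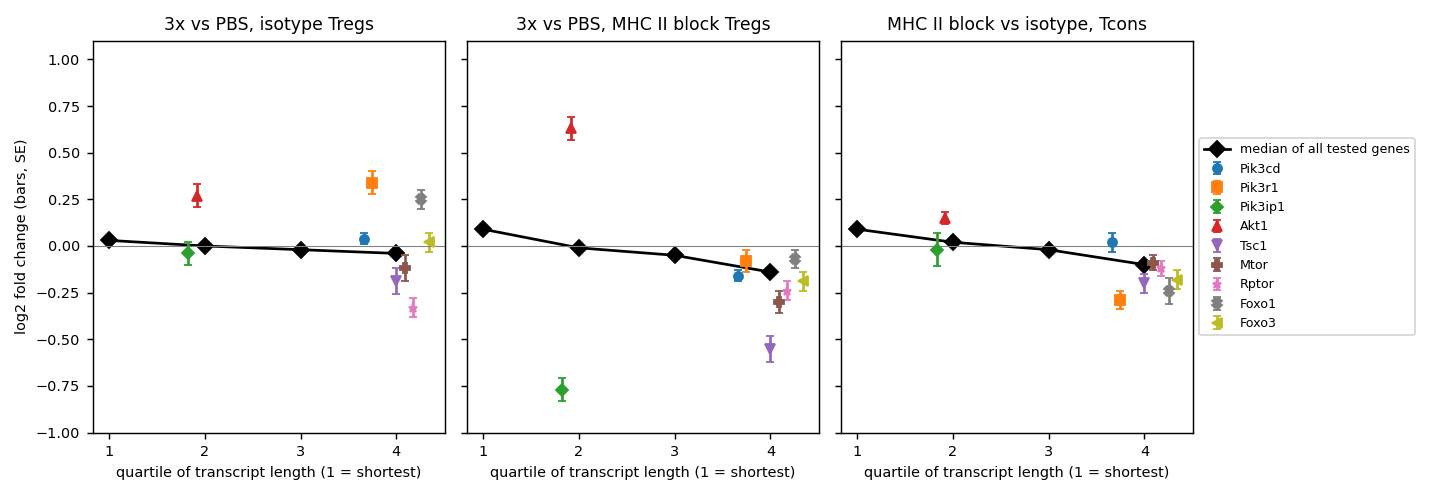
Log2 fold change (y axis) against the quartile of transcript length (x axis, 1 is the shortest) in 3 contrasts. Black diamonds are medians of all genes tested and coloured points the 9 genes with SE bars, offset sideways for legibility. In the middle plot Akt1 (0.63) and Pik3ip1 (-0.77) lie far from the median of their quartile (-0.01), and Pik3cd (-0.16) lies beside its own (-0.14).

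Among themselves, the 9 genes varied in a few shared directions over the 32 Treg libraries. Akt1 ran against Tsc1 (Pearson r = -0.93 on log2 CPM), Mtor (-0.84) and Rptor (-0.81), and Mtor ran with Tsc1 (0.90). Pik3r1 ran with Foxo1 (0.78) and Foxo3 (0.73), and Pik3cd with Pik3ip1 (0.63). These are descriptions over libraries that share treatment groups and differ in depth. The genes most like Akt1 among all tested were Mtch1 (0.98), Pomp and Gsn (both 0.97), and those most like Tsc1 were Nktr, Chd6 (both 0.97) and Ttll4 (0.96). For Pik3r1 they were Sf3b1, Cd69 and Mtmr12 (all 0.92), for Foxo1 Fam53b, Jak1 (both 0.92) and Tbc1d14 (0.91), and for Pik3ip1 Actn1, Als2cl (both 0.89) and Stx1a (0.88). Mtor was most like Cep152, Srrm2 and Nisch (all 0.93), Rptor like Prickle1 (0.93), Leng9 and Tnfsf11 (both 0.90), Foxo3 like Tut4 (0.90), Klhl24 (0.87) and Zmym2 (0.86), and Pik3cd like Pik3r5 (0.81), Gata1 and Sp6 (both 0.77).

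**Figure D4:**
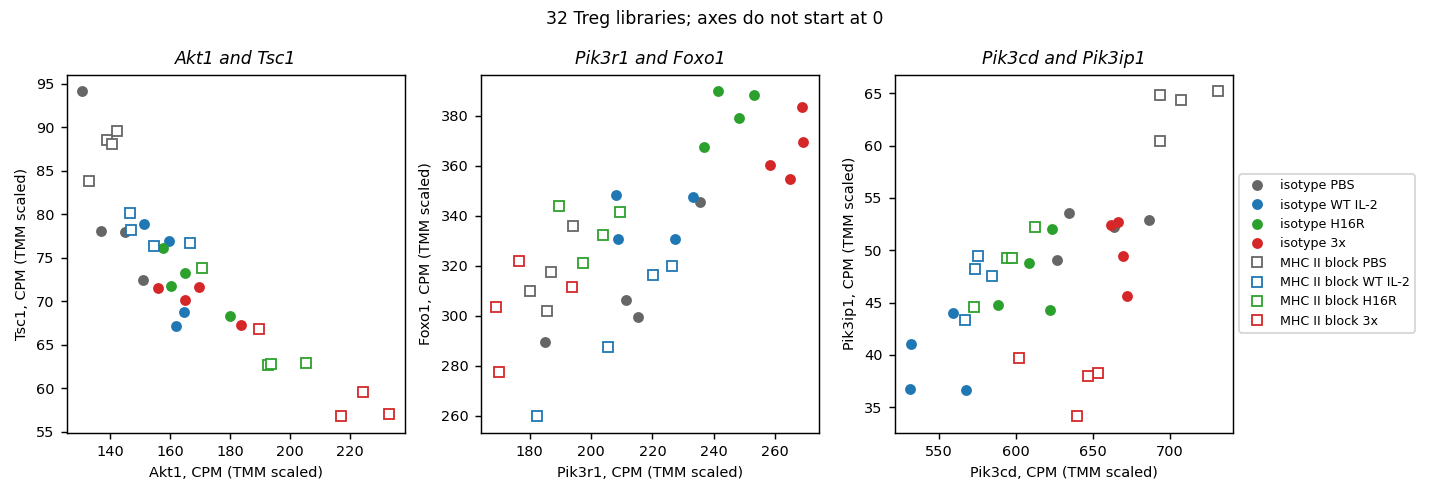
CPM of pairs of the genes in the 32 Treg libraries, 1 point each, coloured by treatment and open for MHC II block; axes do not start at 0. Akt1 and Tsc1 run opposite ways (r = -0.93), with MHC II block 3x at 190 to 233 CPM of Akt1, and Pik3r1 runs with Foxo1 (r = 0.78), with isotype H16R and 3x at the top.

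Of 73 other genes of the pathway in 9 lists, 72 were tested. Against PBS, 24 rose and 15 fell with WT IL-2 in isotype Tregs, 35 and 17 with H16R and 34 and 18 with 3x, and with MHC II block it was 28 and 8, 34 and 19, and 31 and 24. Of 6 kinases at the level of Akt, 4, 5 and 3 rose and 0 fell with WT IL-2, H16R and 3x in isotype Tregs, where 52.2%, 64.2% and 63.6% of all genes passed in either direction. Under MHC II block 2, 5 and 5 of them rose and 1, 0 and 0 fell, where 35.6%, 66.5% and 73.0% of all genes passed. Of 7 phosphatases that oppose PI3K and Akt, 4, 5 and 5 rose and 1, 0 and 1 fell in the isotype arm, and 5, 4 and 3 rose and 1, 1 and 1 fell under the block, against the same shares of all genes. Of 8 other PI3K subunits and adaptors, 1, 2 and 3 rose and 4, 5 and 4 fell with WT IL-2, H16R and 3x in isotype Tregs, and 3, 3 and 3 rose and 2, 4 and 4 fell under the block. Of 7 other mTOR complex subunits, 0, 1 and 1 rose and 2, 3 and 2 fell in isotype Tregs, and 3, 2 and 2 rose and 0, 2 and 2 fell under the block. Of 8 TSC complex, Rheb and stress brake genes, 4, 4 and 3 rose and 1, 1 and 2 fell in isotype Tregs, and 3, 4 and 4 rose and 1, 3 and 4 fell under the block. Of 16 amino acid sensing genes, 5, 7 and 8 rose and 3, 4 and 5 fell in isotype Tregs, and 5, 8 and 7 rose and 0, 4 and 5 fell under the block. Of 7 mTORC1 substrates and ribosomal protein S6 genes, 2, 2 and 2 rose and 2, 2 and 1 fell in isotype Tregs, and 3, 4 and 3 rose and 1, 2 and 1 fell under the block. Foxo4, the 1 other Foxo gene tested, rose with isotype H16R and 3x and fell with 3x under the block. Among the phosphatases, Phlpp1, which dephosphorylates Akt, went from 54.7 to 63.6 CPM in isotype PBS to 104 to 124 CPM in isotype H16R Tregs (0.95 ± 0.07, adjusted p = 2.17e-11).

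Ddit4, a stress-induced brake on mTORC1, rose most among the stress brakes, from 38 to 40.3 CPM in MHC II block PBS to 69 to 90.4 with H16R (1.04) and 84.9 to 103 with 3x (1.29 ± 0.10, adjusted p = 1.68e-11). With WT IL-2 in that arm it read 38.4 to 49.6 CPM, which overlapped PBS. In isotype Tregs it went from 29.4 to 44.4 CPM in PBS to 63.3 to 72.4 with WT IL-2 (0.75), 62.8 to 72.8 with H16R and 59.2 to 75.8 with 3x. Rragd, a Rag GTPase of amino acid sensing, fell by 1.02 with isotype 3x, from 28.9 to 32.8 CPM to 13.1 to 17 CPM. It read 15.4 to 19.4 CPM with isotype H16R and 23.7 to 27.7 with isotype WT IL-2. Under MHC II block it went from 20.9 to 23.1 CPM in PBS to 12.5 to 15 with H16R and 9.26 to 13.4 with 3x, while WT IL-2 read 18.1 to 24. Prr5, an mTORC2 subunit, stood at 3.17 to 12.8 CPM in isotype PBS and 1.1 to 1.23 in isotype 3x (-2.63 ± 0.34), at -1.03 and -1.94 with WT IL-2 and H16R there, and at 1.30 with WT IL-2 under MHC II block. Pik3ap1, an adaptor known from B cells, gave -1.45 with isotype 3x and 0.98 with MHC II block WT IL-2, whose libraries read 8.18 to 32.3 CPM. For both genes the highest library of isotype PBS and of MHC II block WT IL-2 was the replicate 1 that stands apart (12.8 and 19.7 CPM of Prr5), which is high in B cell markers. In the isotype arm and MHC II block WT IL-2, the 3 plasma cell markers moved with Prr5: they summed to 1630 to 1940 CPM in isotype PBS, 733 to 880 with WT IL-2, 281 to 530 with H16R, 175 to 262 with 3x and 1640 to 3220 in MHC II block WT IL-2, where mean Prr5 was 7.18, 3.59, 1.92, 1.18 and 12.1 CPM. In the other MHC II block groups they did not, at 684 to 2020 CPM with PBS, 656 to 1330 with H16R and 694 to 1490 with 3x, where mean Prr5 was 4.94, 5.86 and 6.77 CPM. What these markers contribute was not tested. Deptor, an mTOR inhibitor, rose by 0.81 with MHC II block WT IL-2.

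Of 12 known Foxo target genes, 8 rose and 3 fell with isotype 3x, where 3880 of 12390 genes tested rose and 4006 fell. With isotype WT IL-2 and H16R, 4 and 8 rose and 2 and 2 fell, where 52.2% and 64.2% of all genes passed. With 3x under MHC II block 4 rose and 6 fell, where 4295 of all genes rose and 4745 fell. With WT IL-2 and H16R under the block, 4 and 4 rose and 2 and 3 fell, where 35.6% and 66.5% of all genes passed. Between the arms in 3x Tregs, 0 rose and 11 fell with the block, with a list median of -0.42, where 3368 of 12390 genes tested rose and 3337 fell. The exception, S1pr1, stood at -0.11 (adjusted p = 0.224). In H16R Tregs 0 rose and 7 fell with the block (list median -0.23, with 30.7% of all genes passing). It was 1 and 6 in WT IL-2 Tregs (-0.13, 33.5%), 0 and 2 in PBS Tregs (0.00, 14.1%) and 0 and 6 in Tcons (-0.19, 28.9%). Ccr7, a homing receptor, went from 274 to 328 CPM in MHC II block PBS to 94.8 to 143 CPM with 3x (-1.43 ± 0.13, adjusted p = 1.46e-10), and by -0.88 with H16R and, in isotype Tregs, -0.74 with WT IL-2. Irs2, an insulin receptor adaptor, went from 160 to 162 CPM to 51 to 76.8 CPM (-1.38 ± 0.12), by -0.80 with H16R, and by -0.92 with isotype H16R. Between the arms in 3x Tregs, Il7r fell by 0.83, Klf2 by 0.65 and Txnip by 0.53. These 3 were picked after their values were seen.

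The third question was how Tregs differed from Tcons of the same mouse. In PBS mice, 4 of the 9 genes passed (50.3% of all genes). Foxo1 read 290 and 300 CPM in the isotype PBS Tregs and 245 and 241 CPM in Tcons of the same mice, and it was higher in Tregs by 0.32 ± 0.06 (adjusted p = 3.28e-04), as was Pik3r1 (0.19 ± 0.05, 0.00521). Pik3ip1, at 49 and 53.6 CPM against 74.6 and 81.6 in Tcons, was lower in Tregs (-0.49 ± 0.06, 3.67e-06), and so was Pik3cd (-0.29 ± 0.04, 3.06e-05). Each of the 4 kept its call in all alternatives. Akt1 (-0.03, -0.13 to 0.07), Mtor (0.00, -0.10 to 0.10), Tsc1, Rptor and Foxo3 did not pass. In mice given IL-2, averaged over the 3 molecules, 8 passed (4 higher, 4 lower; 80.8% of all genes), with Pik3ip1 at -0.77, Foxo1 at 0.56, Pik3cd at -0.31 and Foxo3 at -0.20. Among other pathway genes in PBS mice, 19 were higher in Tregs and 24 lower, led by Rragd (3.03 ± 0.15), Phlpp1 (1.27 ± 0.10) and Pik3r5 (-0.90 ± 0.06), a regulatory subunit of another PI3K.

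**Figure D5:**
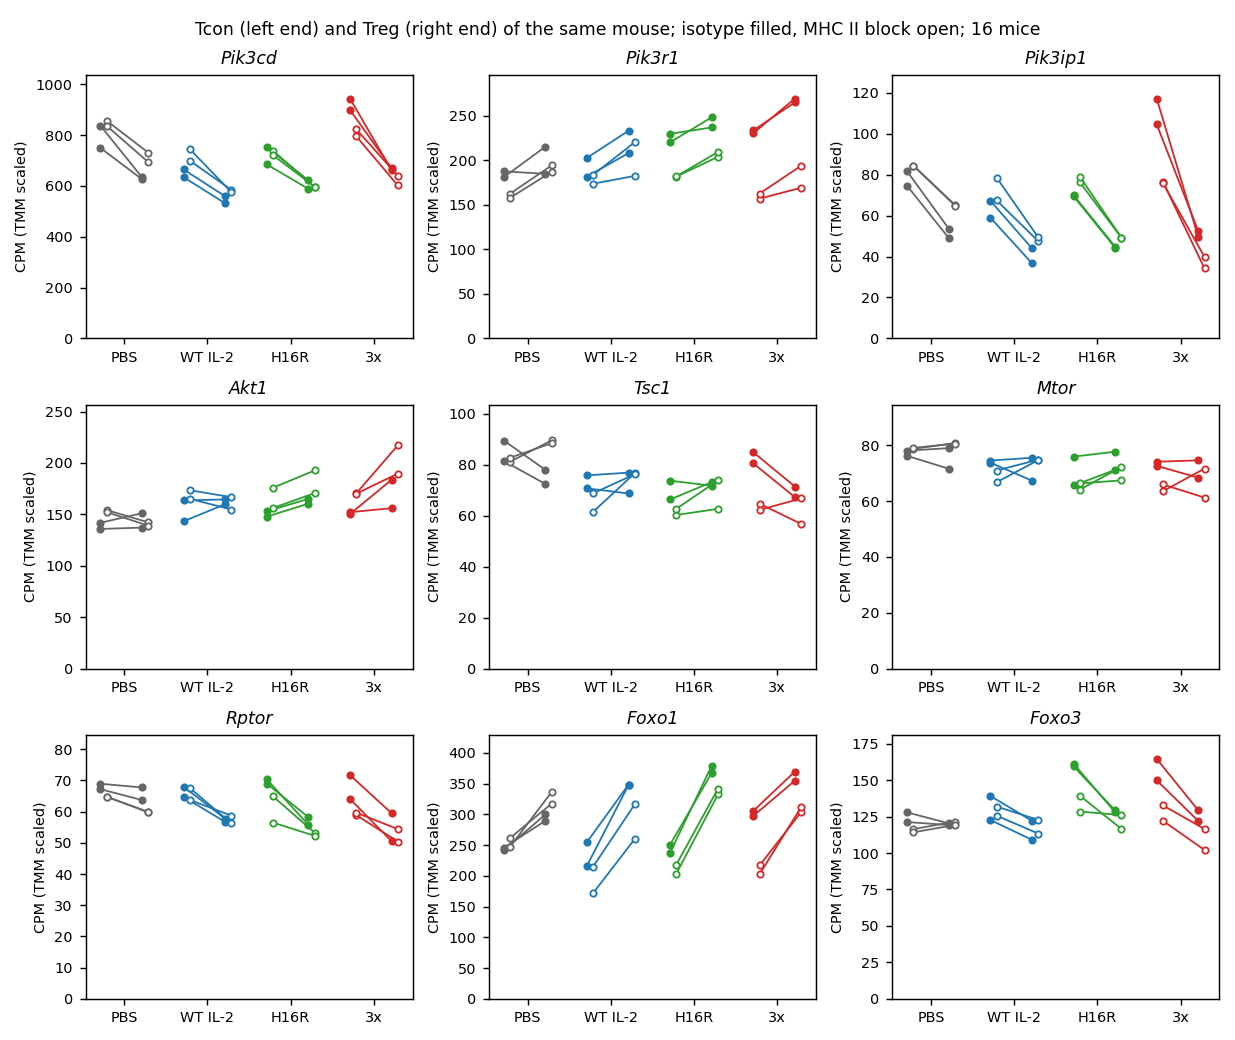
CPM (y axis, from 0) of each gene in the Tcon library (left end) and Treg library (right end) of the same mouse, 16 mice, by treatment, filled for isotype and open for MHC II block. Pik3ip1 and Pik3cd slope down and Foxo1 slopes up in all 16 mice, with isotype PBS Foxo1 at 241 to 245 CPM in Tcons and 290 to 300 CPM in the Tregs of the same mice.

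The difference between IL-2 and PBS mice in the Treg-to-Tcon contrast passed for 5 genes (44.3% of all genes). It was -0.28 ± 0.06 for Pik3ip1, 0.24 ± 0.07 for Foxo1, -0.21 ± 0.05 for Foxo3, 0.16 ± 0.06 for Akt1 and -0.13 ± 0.05 for Rptor. Without the replicate block on the mouse only Foxo3 passed. The Akt1 call was also lost with total counts (0.10, adjusted p = 0.18), no filter (0.15, 0.106), all biotypes (0.12, 0.184) and limma on FPKM at either pseudocount (0.10, 0.156 and 0.157). Treg markers in Tcons summed to 281 to 646 CPM except in 1 isotype WT IL-2 library, at 1330, and their part in these values was not tested.

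In Tcons, with 2 libraries a group and both arms in 1 fit, 4 genes passed with WT IL-2 against PBS (27.2% of all genes), 6 with H16R (31.1%) and 4 with 3x (9.88%). Tsc1 fell with WT IL-2 (-0.28 ± 0.06, adjusted p = 0.0145) and H16R (-0.35 ± 0.06, 0.00308), from 81.2 to 89.6 CPM over both PBS groups to 61.6 to 75.9 and 60.3 to 73.8 CPM. Pik3cd fell with WT IL-2 (-0.26 ± 0.07, 0.0215), and Pik3r1 (0.24) and Foxo3 (0.29 ± 0.06, 0.00821) rose with H16R. Of the 4 calls with 3x, those of Akt1, Mtor and Tsc1 were each lost in some alternative, and that of Foxo3 was lost only when single libraries were left out (0.19 without isotype 3x replicate 2, adjusted p = 0.121). MHC II block against isotype passed for 7 genes (1 higher, 6 lower; 28.9% of all genes): Akt1 rose by 0.15 and Pik3r1 fell by 0.29, Foxo1 by 0.24, Tsc1 by 0.20 and Foxo3 by 0.18. Pik3ip1 did not pass there (-0.02, -0.19 to 0.16), although its isotype 3x Tcons, at 105 and 117 CPM, stood above the 75.9 and 76.5 CPM of MHC II block 3x Tcons. B cell markers summed to 631 to 693 CPM in isotype PBS Tcons and 73.5 to 308 in the other groups, and myeloid markers to 302 to 475 CPM in MHC II block WT IL-2 Tcons. Over all Tcon genes the block contrast ran from 0.09 in the shortest quartile of length to -0.10 in the longest. Against PBS the run was 0.11 to -0.10 with WT IL-2, 0.11 to -0.11 with H16R and 0.08 to -0.09 with 3x. The part of these in the Tcon values was not tested.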

How the data were processed

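RNA from bead-separated splenic Tregs and Tcons was sequenced with a stranded mRNA kit. The authors aligned reads with OSA in Omicsoft Array Suite to mouse build B38 and quantified genes by RSEM. The deposited matrices hold expected counts (72.6% of nonzero values whole) and FPKM, and no column belonged to another sample. Deposited tables of the authors' own comparisons (fold changes, Wald statistics, adjusted p-values) were not used. The paper names a GENCODE gene model, but which mouse release lies behind the matrices was unclear. Of 53345 gene names, 51519 matched GENCODE M21.

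Expected counts were rounded to whole numbers. Protein-coding genes above 0.5 CPM in at least 4 fitted libraries and without an empty cell were tested by edgeR 4.0.16 (R 4.3.3): TMM scaling, quasi-likelihood fit and Benjamini-Hochberg adjustment over all tested genes at 0.1. This left 12390 genes in 32 Tregs (8 groups in 1 fit), 12845 in the 16 mice with both fractions and 12529 in 16 Tcons (treatment plus antibody). SE is the log2 fold change divided by the root of F, and intervals are 95%. Alternatives used DESeq2 1.42.0, limma 3.58.1 on log2 FPKM, other scalings and filters, and left-out libraries. The steps were tested on simulated data.

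The 9 genes and all lists were chosen with earlier results of these data known. The text names all 9 genes, the 3 called pathway genes with the largest change (mean above 5 CPM) in each contrast of a molecule with PBS in Tregs and in Treg against Tcon in PBS mice, and the 3 genes most correlated with each of the 9. The labels give Treg and Tcon of 1 mouse the same tag, so the mouse was a block there. Their deviations from group means correlated by 0.15 to 0.55. With 2 mice a group those deviations are mirror images, so both mice give the same value, and the 16 values are not separate ones. Treg libraries sharing a number across groups had a median correlation of 0.02, so numbers were not used to pair them. No 2 libraries of 1 group were duplicates; pairs across groups were not compared. In the Treg fit, p-values measure the spread between the libraries of a group, taken as separate mice, although 2 isotype WT IL-2 Treg libraries carry 1 mouse tag. In the Tcon fit, where treatment and antibody add, the spread also holds any difference of response between the arms. In the fit of both fractions it is the spread of the Treg-to-Tcon difference between mice of a treatment, both arms together. The lowest count of any of the 9 genes was 968, and thinning every Treg library to the smallest total lost 9 calls and gained 1.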

Additional observations from a re-analysis of the deposited data

Results flagged for a closer look

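In 72 groups of 4 Treg libraries (9 genes in 8 groups), 2 held a library far from the other 3, where chance gives about 1 in 20. Foxo3 in MHC II block 3x replicate 2 read 116 CPM against 102 to 103 in the others, and Tsc1 in MHC II block H16R replicate 2 read 73.9 CPM against 62.7 to 63.

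A molecule's change against PBS differed between antibody arms, by the interaction term, for 12 results on the log2 scale. With WT IL-2 it was -0.21 for Foxo1 (adjusted p = 0.0644). With H16R it was -0.16 for Pik3cd (0.0265), -0.26 for Pik3ip1 (0.0546), -0.27 for Tsc1 (0.0604) and -0.22 for Foxo1 (0.0541). With 3x it was 0.36 for Akt1 (0.00352), -0.21 for Pik3cd (0.00172), -0.42 for Pik3r1 (4.35e-04), -0.73 for Pik3ip1 (1.91e-06), -0.37 for Tsc1 (0.00456), -0.32 for Foxo1 (0.00225) and -0.21 for Foxo3 (0.0291). The 3x values other than that of Foxo3 passed in every alternative.

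The Treg-to-Tcon contrast differed between IL-2 and PBS mice for Akt1 by 0.16 (0.0416), for Pik3ip1 by -0.28 (0.00424), for Rptor by -0.13 (0.0438), for Foxo1 by 0.24 (0.0142) and for Foxo3 by -0.21 (0.00815).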

How the results depend on the processing

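Of 234 results (9 genes in 26 contrasts), 137 passed and 81 of these passed in all alternatives and in all 64 fits that left out 1 library or mouse. Over 2619 alternative values 165 lost and 52 gained a call and 9 changed sign. Over 6480 left-out values 248 lost and 51 gained a call and 0 changed sign. The causes were not tested. Signs turned with limma on FPKM (pseudocounts 1 and 0.1) for Foxo3 in isotype Tregs with H16R (-0.10 and -0.11) and 3x (-0.11 and -0.12), for Mtor between arms in 3x Tregs (0.03 and 0.04) and for Mtor in Tregs against Tcons of IL-2 mice (-0.01 and -0.01), the last also with total counts (-0.03).

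The number of the 9 genes called moved as follows. With total counts, H16R against WT IL-2 (isotype) gave 3. With no filter, H16R against PBS (isotype) gave 4, H16R against WT IL-2 (MHC II block) 3 and 3x in Tcons 1. With all biotypes the H16R interaction gave 1. With limma, H16R against WT IL-2 (isotype) gave 2 at either pseudocount. At adjusted p under 0.05, H16R and 3x against WT IL-2 (isotype) gave 3 each, 3x against H16R (MHC II block) 2, the WT IL-2 and H16R interactions 0 and 1, and 3x in Tcons 1. With only the groups compared, WT IL-2 against PBS (isotype) gave 4, block against isotype in PBS 1, 3x against H16R 2 (isotype) and 3 (MHC II block), and the WT IL-2 interaction 0. Without the 2 libraries that stand apart, WT IL-2 against PBS (MHC II block) gave 3.

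Leaving out 1 library gave 3 to 5 for WT IL-2 against PBS with MHC II block (lowest without MHC II block WT IL-2 replicate 1), 2 to 6 for block against isotype in H16R, 2 to 5 and 3 to 6 for H16R and 3x against WT IL-2 (isotype), 3 to 6 for H16R against WT IL-2 and 1 to 7 for 3x against H16R (MHC II block), 0 to 1 and 1 to 6 for the WT IL-2 and H16R interactions, and 2 to 7 and 0 to 5 for WT IL-2 and 3x in Tcons.

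The replicate block on the shared number lost 4 calls in Tregs and Tcons (Pik3ip1 with isotype H16R, adjusted p = 0.112, among them) and gained 4. Without the replicate block on the mouse, the Treg-to-Tcon difference was called for 1 gene, and Pik3ip1 there stood at -0.29 (adjusted p = 0.18).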
